A study of Mus musculus with 18 samples.

Results

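The 6 libraries compared here are peritoneal macrophages with high surface Tim-4, 3 from tumor-bearing mice given an antibody against Tim-4 and 3 from mice that carried no tumor. They were chosen by the names of their columns in the gene count table and are 6 of the 18 libraries of the series. Beside them stand the 3 Tim-4high libraries of tumor-bearing mice that received isotype antibody, which carry the tumor change without anti-Tim-4. The tumor was MC38-LG, a line of the mouse colon carcinoma MC38, placed in the peritoneal cavity. Anti-Tim-4 followed on day 7, and the cells were harvested on day 10. No day of the isotype antibody is recorded in the sample labels used here. Mice without a tumor were not challenged, are labelled as untreated and were harvested on the same day, so the comparison with them holds the tumor and the antibody together. Every library is bulk RNA of sorted cells. The labels name no strain, age, sex or antibody clone, and no gate beyond Tim-4low and Tim-4high. They do not say that the 3 libraries of a group came from separate mice, so the p-values cover the spread among these libraries alone, and that spread may be technical.

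Tim-4, encoded by Timd4, is a receptor for phosphatidylserine, the lipid that dying cells expose, and it lets resident macrophages of body cavities bind and engulf them. Resident peritoneal macrophages depend on the transcription factor Gata6 and express adhesion and clotting genes such as Icam2, Selp, F5 and F10. Macrophages in a tumor commonly turn up glycolysis, arginine breakdown by Arg1 and ligands that restrain T cells, while short-lived immediate-early genes and NF-kB targets follow recent stimulation.

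Levels are given as CPM, the estimated counts scaled by TMM library size to a common total, and a fold change is on the log2 scale with its standard error where one is printed. A gene was called when edgeR's quasi-likelihood test gave a Benjamini-Hochberg adjusted p under 0.05 over 16609 genes. Totals of the 9 Tim-4high libraries lay between 24530070 and 29832626 estimated counts. In bulk RNA, fewer cells of a type and less RNA per cell cannot be told apart. All 12 macrophage-defining genes, among them Adgre1, Csf1r, Itgam and Lyz2, were present in all 9 libraries, with summed levels of 37253 to 45866 CPM without a tumor, 22514 to 23826 under isotype and 21015 to 21876 under anti-Tim-4. Lyz2, a lysozyme gene, made up most of that difference, at 26510 to 35851 CPM without a tumor and 8297 to 10892 under anti-Tim-4.

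Isotype library 3 stood apart in markers of other cells. Its 14 T cell markers summed to 126 CPM against 24.9 and 18.1 in the other isotype libraries and 11.1 to 15.4 under anti-Tim-4. Its NK cell markers summed to 99.1 CPM against 15.8 and 11.4, and its neutrophil markers to 391 against 114 and 100. Without a tumor, B cell markers were high in library 1, at 645 CPM against 204 and 237, and were 21.4 to 25.4 under anti-Tim-4. No marker list was at 0 as a whole, while the neutrophil gene Stfa2l1 was at 0 in all 3 no-tumor libraries, and Camp and Mpo were at 0 in the 3 anti-Tim-4 libraries. The part of these other cells in the results was not tested. Values without isotype library 3 are given for many, not all, of the named genes whose call against isotype was lost without it. A gene without such a value is not shown to keep its call. Of the 1324 genes called between anti-Tim-4 and isotype, 196 (14.8%) were also called without that library.

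**Figure D1:**
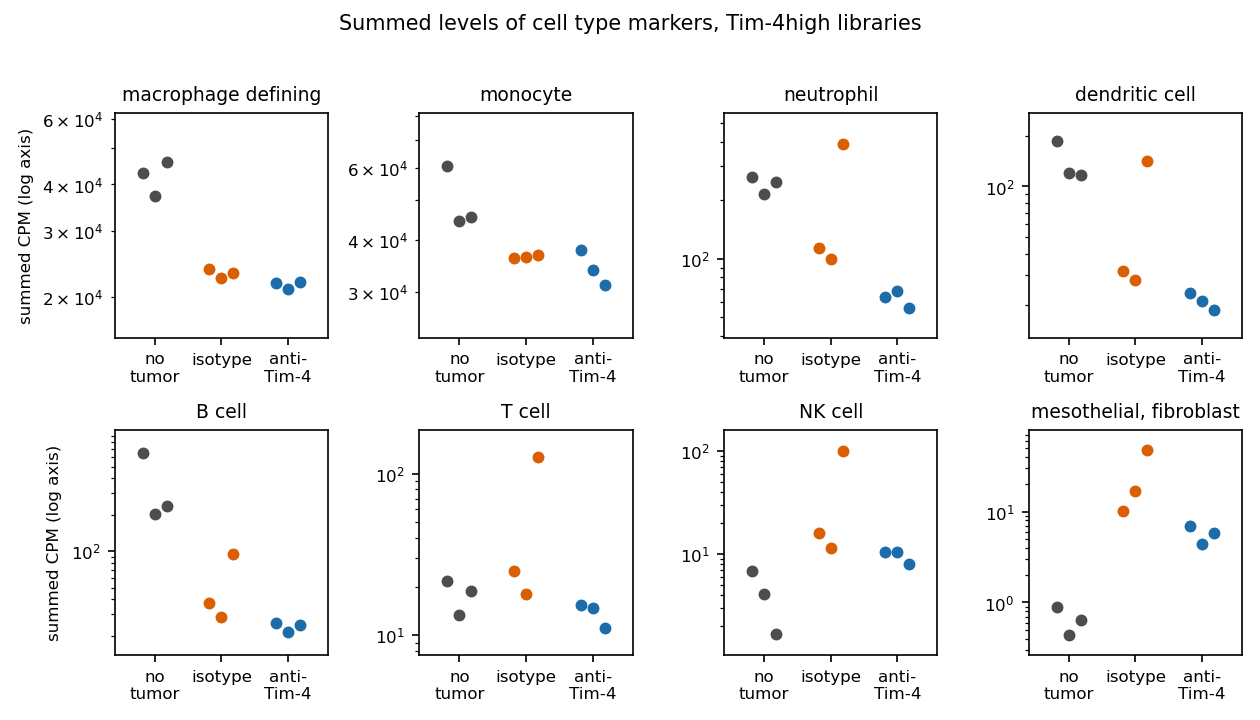
Summed CPM of the markers of 8 cell types (log axes) in each Tim-4high library, with 1 point per library and the 3 groups along each x axis. Isotype library 3 is the high orange point for neutrophil, dendritic, B, T, NK and mesothelial or fibroblast markers, while the anti-Tim-4 libraries lie close together.

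Most of the tumor change stood under the antibody. Anti-Tim-4 tumor libraries differed from no-tumor libraries in 8782 genes, 52.9% of those tested, of which 4554 (27.4%) were higher and 4228 (25.5%) lower. Changes of more than 2-fold numbered 1474 higher and 1738 lower. Isotype tumor libraries differed from the same no-tumor libraries in 8548 genes (51.5%), 4539 (27.3%) higher and 4009 (24.1%) lower. The direct comparison of anti-Tim-4 with isotype called 1324 genes (7.97%), 715 (4.3%) higher and 609 (3.67%) lower. A looser description counts genes whose 3 and 3 libraries did not overlap in CPM. These were 60.6% of genes for anti-Tim-4 over no tumor (30.8% higher, 29.8% lower), 57.5% for isotype over no tumor (29.5% higher, 28.1% lower) and 39.2% for anti-Tim-4 over isotype (20% higher, 19.3% lower). The 3 comparisons share libraries in pairs, so their lists are not independent of each other.

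Genes called between isotype and no tumor were sorted by the other 2 calls. Of the 8548, 6272 (73.4%) stood, meaning that they were called the same way under anti-Tim-4 and were not called against isotype. Another 349 (4.08%) were undone, called back toward the no-tumor level against isotype and no longer called against no tumor. A further 230 (2.69%) were partly undone, called back but still called against no tumor. For 304 genes (3.56%) the change was extended, and 6 were reversed past the no-tumor level. The remaining 1387 (16.2%) were called in neither other comparison and could not be placed. Among the 8782 genes called under anti-Tim-4 against no tumor, 351 (4%) were added, called the same way against isotype and not part of the isotype change. A gene that misses the threshold is not shown to be equal between groups. For the gene lists below, a count of genes that stood has as its background the 73.4% of all genes called under isotype.

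The direct comparison was the least stable step. With edgeR it gave between 10 and 1530 genes when 1 Tim-4high library was left out, 10 without isotype library 1, 31 without anti-Tim-4 library 3 and 203 without isotype library 3. The comparison with no tumor gave 7797 to 8819 under the same omissions. DESeq2 on all libraries called 2108 genes against isotype and, leaving out each anti-Tim-4 or isotype library, 589 to 2056.

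**Figure D2:**
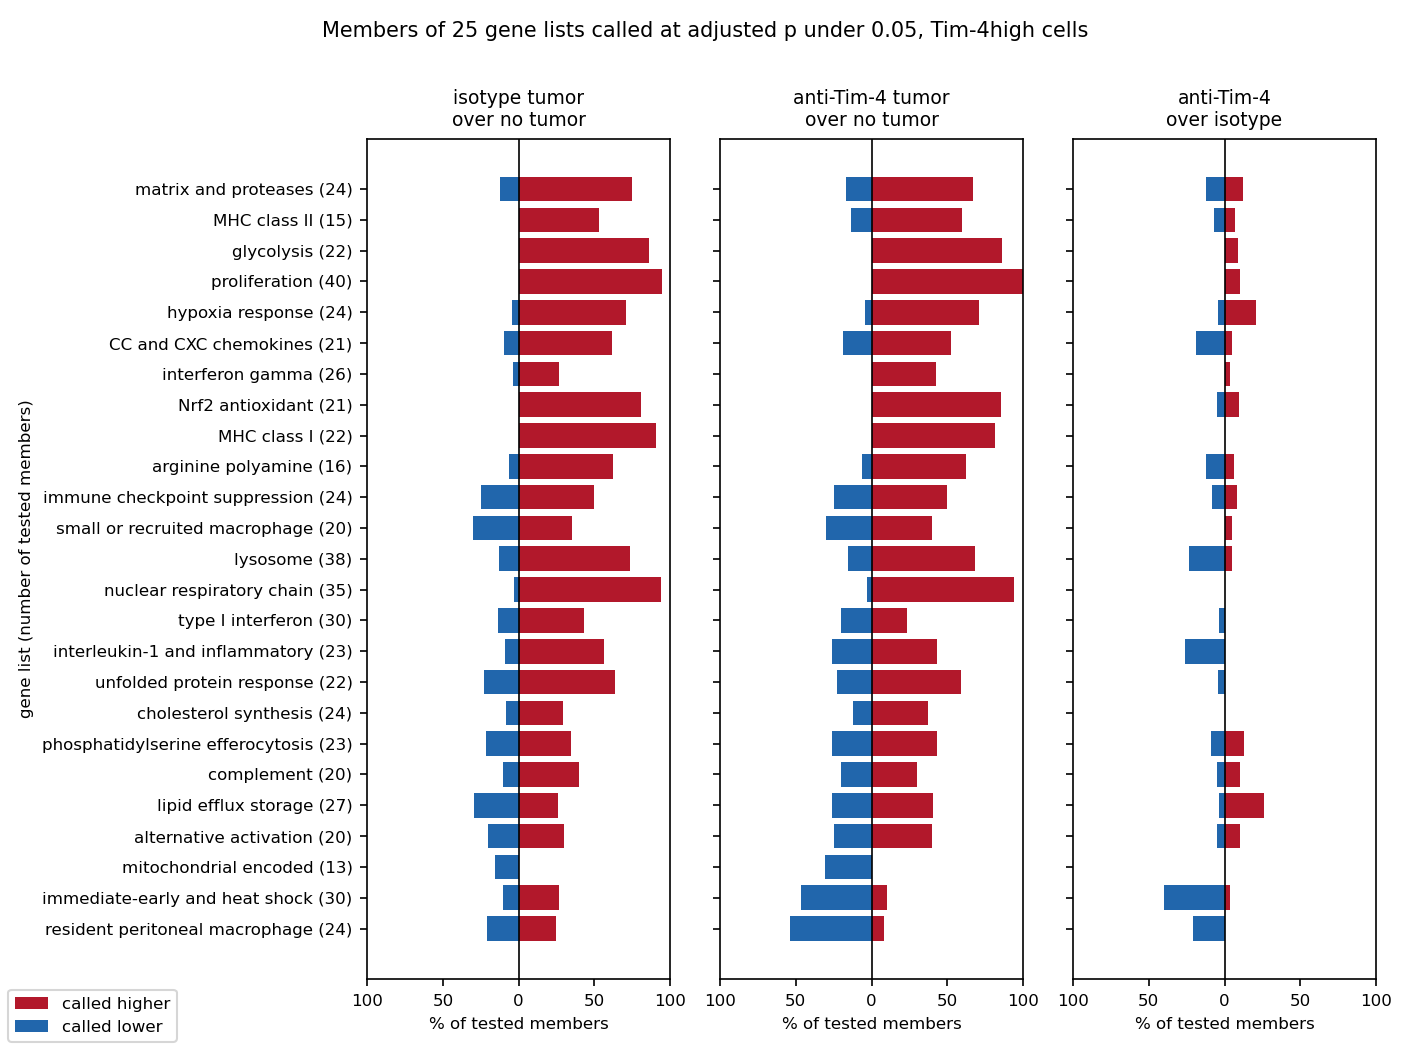
Percentage of the tested members of 25 gene lists called higher (red, right) or lower (blue, left) in Tim-4high cells, for isotype tumor over no tumor, anti-Tim-4 tumor over no tumor and anti-Tim-4 over isotype. The middle panel resembles the left one for glycolysis, proliferation and MHC class I, and differs from it in the lowest bars, the resident macrophage and immediate-early genes.

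Timd4, the gene of the antibody's target, was at 886, 680 and 622 CPM without a tumor, at 320, 294 and 280 under isotype and at 219, 173 and 169 under anti-Tim-4. It lies at chr11:46810800-46844332 on the plus strand of mm10. The 3 groups did not overlap, yet the log2 fold change of -1.96 ± 0.80 (SE) against no tumor was not called (edgeR adjusted p = 0.0512), nor was the -0.67 against isotype (adjusted p = 0.626). The fit over all libraries includes Tim-4low libraries, where Timd4 ranged from 9.13 to 109 CPM within 1 group. Fitted on the compared groups alone, the adjusted p was 0.000168 against no tumor and 0.0075 against isotype. A lower Timd4 transcript says nothing of the receptor at the surface, and the sort itself was on that receptor.

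Resident macrophage genes were mostly lower under anti-Tim-4 than without a tumor, and were less one-sided under isotype. Of the 24 genes of this list, 13 were called lower and 2 higher under anti-Tim-4 (62.5% called against 52.9% of all genes), with a median log2 fold change of -1.13 against -0.019 over all genes. Under isotype, 5 were called lower and 6 higher (45.8% against 51.5% of all genes), with a median of -0.01. Directly against isotype, 5 were called lower and none higher by edgeR, 14 lower by DESeq2, and 22 lower when only the compared groups were fitted. Over all genes, the lower calls of these fits also rose, from 609 (3.67%) to 1110 and 1554 in the same order. All 24 genes were lower in each anti-Tim-4 library than in each isotype library, a pattern that 19.3% of all tested genes had in that direction. Anti-Tim-4 library 3 was the lowest of its group for all 24. Without it 10 were called lower and 3 higher against no tumor and none either way against isotype (edgeR). Over all genes, that fit called 3664 lower and 4233 higher against no tumor. Under anti-Tim-4, mean levels in Tim-4low and Tim-4high libraries were close for Gata6 (73.5 and 73.4 CPM) and Icam2 (176 and 188). They were further apart for others, among them Timd4 (21.3 and 187), Vsig4 (43.6 and 125) and Marco (472 and 1045). Whether cells passed from one sort gate to the other under the antibody was not tested.

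Several adhesion and clotting genes were called lower under anti-Tim-4 and not called under isotype against no tumor. Icam2, an adhesion molecule used to mark large peritoneal macrophages, was at 443, 501 and 438 CPM without a tumor, 426, 340 and 410 under isotype, and 241, 186 and 136 under anti-Tim-4. The anti-Tim-4 libraries lay below all the others, and Icam2 was added, with log2 fold changes of -1.29 against no tumor (edgeR adjusted p = 0.00141) and -1.06 against isotype (adjusted p = 0.0361). Coagulation factor V, F5, was at 1593 to 2864 CPM without a tumor, 1542 to 1841 under isotype and 441 to 902 under anti-Tim-4. F5 was also added, at -1.65 and -1.35 (adjusted p = 0.00166 and 0.0388). Thbs1, the matrix protein thrombospondin 1, was added as well, at -0.77 and -1.08 (adjusted p = 0.0197 and 0.0242). P-selectin, Selp, fell against no tumor (-1.43, adjusted p = 0.00441), and its -1.20 against isotype was not called (adjusted p = 0.0582). F10, clotting factor X, went the other way and stood, with rises of 0.87 under anti-Tim-4 and 1.25 under isotype.

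Other secreted members were called lower with the tumor under either antibody. Tgfb2, a growth factor of the TGF-beta family, was at 473 to 552 CPM without a tumor, 38.1 to 53.9 under isotype and 9.84 to 28.9 under anti-Tim-4. Cxcl13, a B cell chemokine, was at 690 to 1062, 68.1 to 106 and 31.8 to 63.9 CPM in the same order. Prg4, the lubricant proteoglycan of serous surfaces, was at 7778 to 10289, 2794 to 3919 and 827 to 2049 CPM. All 3 genes stood, with log2 fold changes of -4.77, -4.21 and -2.61 under anti-Tim-4 and -3.40, -3.40 and -1.38 under isotype. Gata6 itself was at 202, 130 and 129 CPM without a tumor, 212, 169 and 207 under isotype, and 99.0, 77.3 and 43.8 under anti-Tim-4. Its anti-Tim-4 libraries lay below all others, and its log2 fold changes of -1.07 ± 0.45 against no tumor (edgeR adjusted p = 0.0579) and -1.42 ± 0.45 against isotype (adjusted p = 0.0655) were not called, whereas DESeq2 gave 0.0414 and 0.0247. Alox15, a lipoxygenase of resident macrophages, was at 4017 to 5820, 4623 to 6651 and 1205 to 2689 CPM. Alox15 fell against no tumor (-1.19, adjusted p = 0.0353) and its -1.40 against isotype was not called (adjusted p = 0.0657).

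Adgre1, which encodes the macrophage antigen F4/80, rose with the tumor under isotype (log2 fold change 0.94, edgeR adjusted p = 0.0244) and could not be placed under anti-Tim-4. It was at 1749 to 2237 CPM without a tumor and 3543 to 3935 under isotype, and at 2545, 2109 and 1266 under anti-Tim-4, where the level spanned the no-tumor range. Bhlhe40, a transcription factor tied to macrophage self-renewal, was the 1 list member partly undone. It was at 245 to 263, 761 to 839 and 464 to 565 CPM, a rise of 0.98 ± 0.11 under anti-Tim-4 (adjusted p = 3.48e-06) and of 1.64 under isotype (adjusted p = 3.05e-08).

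**Figure D3:**
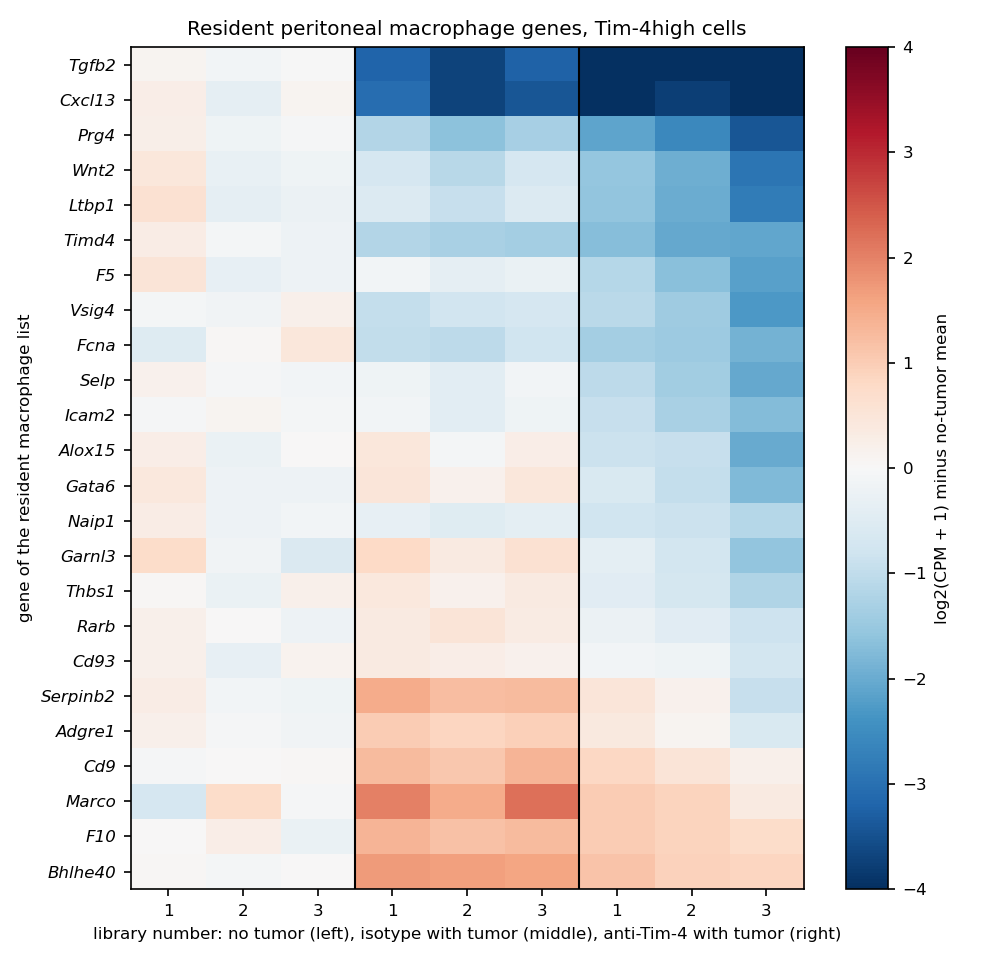
Log2(CPM + 1) of 24 resident macrophage genes in each of the 9 Tim-4high libraries, minus the gene's mean over the no-tumor libraries, with blue for lower and red for higher (colours end at 4 in either direction). The right block, anti-Tim-4, is bluer than the middle block, isotype, in every row, and its library 3 is the bluest for all 24 genes.

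Glycolysis genes stood almost as a whole. Of 22 glycolysis genes, 19 were called higher and none lower under anti-Tim-4, and the same counts held under isotype, with medians of 1.58 and 1.57 against -0.019 and -0.007 over all genes. The share called was 86.4% under either antibody, against 52.9% (anti-Tim-4) and 51.5% (isotype) of all genes. Of the glycolysis genes, 18 stood and 1, Pfkfb4, was extended. Pgk1, phosphoglycerate kinase, was at 36.6, 43.6 and 33.8 CPM without a tumor, 264, 291 and 286 under isotype, and 298, 357 and 352 under anti-Tim-4. Both tumor groups lay far above the no-tumor libraries, with a log2 fold change of 3.14 ± 0.13 under anti-Tim-4 (edgeR adjusted p = 2.85e-10) and 2.88 under isotype. Tpi1 and Pgam1, further enzymes of the pathway, rose by 2.65 ± 0.13 and 2.67 ± 0.12, and the hexokinase Hk2 by 2.24 ± 0.10. The lactate exporter Slc16a3 went from 42.3 to 67.5 CPM without a tumor to 441 to 489 under anti-Tim-4.

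Among 24 hypoxia response genes, 17 were called higher and 1 lower against no tumor under either antibody, and 12 stood. The share called was 75%, against 52.9% of all genes under anti-Tim-4 and 51.5% under isotype. Vegfa, the angiogenic growth factor, was at 1.34, 3.00 and 1.55 CPM without a tumor, 65.6, 70.1 and 52.2 under isotype, and 46.1, 49.3 and 45.1 under anti-Tim-4, all 3 below the isotype range. Its rise under anti-Tim-4 was 4.58 ± 0.23 (edgeR adjusted p = 1.07e-09), and the -0.42 against isotype was not called (adjusted p = 0.146). In 4 members the rise was extended, namely Hif1a, which encodes the oxygen-regulated subunit of the hypoxia factor, its hydroxylase gene Egln1, the adenylate kinase gene Ak4 and Bnip3, a gene of mitochondrial clearance. Bnip3 was at 7.62 to 8.69, 41.9 to 63.7 and 71.0 to 92.5 CPM, with no overlap among the 3 groups, and rose by 0.68 ± 0.15 against isotype (adjusted p = 0.0187). Hilpda, a lipid droplet gene, was instead partly undone, at 75.8 to 97.0 CPM under isotype and 44.6 to 59.0 under anti-Tim-4.

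The stretch before the gene start is shown for Pgk1 and Bnip3 because it holds the core of the hypoxia response element, ACGTG on either strand, here in capitals. The 250 bases come from RefSeq on GRCm38.p6, in the direction of transcription, at chrX:106186850-106187099 (plus strand) for Pgk1 and chr7:138909507-138909756 (minus strand) for Bnip3. In Bnip3 the capitals mark 1 palindrome that matches on both strands.
Pgk1: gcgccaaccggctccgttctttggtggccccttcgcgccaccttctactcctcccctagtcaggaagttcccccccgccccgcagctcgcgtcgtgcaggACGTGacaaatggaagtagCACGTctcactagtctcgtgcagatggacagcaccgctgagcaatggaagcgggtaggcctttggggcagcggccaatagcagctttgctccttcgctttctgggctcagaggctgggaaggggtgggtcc
Bnip3: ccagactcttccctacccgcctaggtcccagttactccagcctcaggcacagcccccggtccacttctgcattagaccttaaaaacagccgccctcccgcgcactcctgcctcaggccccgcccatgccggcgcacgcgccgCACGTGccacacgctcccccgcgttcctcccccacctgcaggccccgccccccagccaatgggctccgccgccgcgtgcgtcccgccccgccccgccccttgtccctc

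The motif stood in this window in 12 of the 21 glycolysis genes with an entry (57.1%) and 12 of the 20 hypoxia response genes (60%), against 18.5% of 27025 genes, counting any of a gene's entries. It stood in 9 of 24 immediate-early and heat shock genes (37.5%), 7 of 21 interleukin-1 and inflammatory genes (33.3%) and 3 of 16 resident macrophage genes (18.8%). A match is a description of letters and was not tested as a site.

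Of 16 arginine and polyamine genes, 10 were called higher and 1 lower under either antibody, and 8 stood. The share called was 68.8%, against 52.9% of all genes under anti-Tim-4 and 51.5% under isotype. Arg1, arginase 1, was at 211, 210 and 177 CPM without a tumor, 8258, 8864 and 8586 under isotype, and 9368, 9394 and 8516 under anti-Tim-4. The tumor groups overlapped each other and lay above no tumor, with log2 fold changes of 5.51 ± 0.42 (edgeR adjusted p = 7.06e-08) and 5.42. Nos2, the inducible nitric oxide synthase, rose by 6.11 ± 0.68 under anti-Tim-4, from 0.0374, 2.76 and 0.302 CPM to 40.7, 92.7 and 76.6. The arginine carrier Slc7a2 rose by 2.97 ± 0.19 under anti-Tim-4. Odc1, which makes the polyamine putrescine, was partly undone, at 26.2 to 29.0, 76.2 to 78.9 and 56.6 to 59.8 CPM, with no overlap among groups and a log2 fold change of -0.41 ± 0.10 against isotype (adjusted p = 0.0262).

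Of 24 checkpoint and suppression genes, 12 were called higher and 6 lower against no tumor under either antibody, and 12 stood. The share called was 75% against 52.9% of all genes, while the share called lower was close to the 25.5% of all genes. Cd274, which encodes PD-L1, was at 17.1, 132 and 16.3 CPM without a tumor, 419, 413 and 373 under isotype, and 413, 372 and 302 under anti-Tim-4. Its rise of 2.71 ± 0.65 under anti-Tim-4 (edgeR adjusted p = 0.00243) was 4.44 without no-tumor library 2, the high one. Havcr2, which encodes Tim-3, rose by 5.41 ± 0.46, from 0.189 to 0.316 CPM to 7.50 to 12.8. The gene of the other PD-1 ligand, Pdcd1lg2, was extended, at 0.859, 0.158 and 0.679 CPM without a tumor, 3.64, 6.56 and 4.85 under isotype, and 22.9, 16.8 and 25.6 under anti-Tim-4. The 3 groups did not overlap, and the log2 fold change against isotype was 2.11 ± 0.52 (adjusted p = 0.0265). Leaving out each library in turn, DESeq2 kept that call in 2 of 6 omissions. The costimulatory gene Cd80 was extended downward, at 24.0 to 27.8, 14.5 to 18 and 11.2 to 12.5 CPM, by -0.52 ± 0.11 against isotype (adjusted p = 0.0158).

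Of 22 genes of MHC class I presentation, 18 were called higher under anti-Tim-4 and 20 under isotype, with none called between the antibodies by edgeR. The shares called were 81.8% and 90.9%, against 52.9% and 51.5% of all genes. B2m, the light chain of class I, was at 1515 to 2079 CPM without a tumor and 3329 to 3488 under anti-Tim-4. Of 15 class II genes, 9 were called higher and 2 lower under anti-Tim-4, or 73.3% called against 52.9% of all genes. H2-Eb1 went from 233, 718 and 115 CPM to 2076, 1823 and 2202. Class II levels without a tumor were highest in library 2, and the rise of H2-Eb1 of 2.52 ± 0.43 was 3.55 without it. All 40 proliferation genes were called higher under anti-Tim-4 and 38 under isotype, with medians of 1.57 and 1.25. Of all genes, 27.4% and 27.3% were called higher. In 4 proliferation genes, Pcna, Mcm3, Mcm6 and the cyclin gene Ccne2, the rise was extended. Pcna, the sliding clamp of DNA replication, was at 60.3 to 73.8, 103 to 118 and 141 to 154 CPM, with no overlap and a log2 fold change of 0.39 ± 0.08 against isotype (edgeR adjusted p = 0.0143). Of 35 nuclear genes of the respiratory chain, 33 were called higher and 1, Ndufa4, lower under either antibody, and 34 stood. The share called was 97.1%, against 52.9% and 51.5% of all genes.

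**Figure D4:**
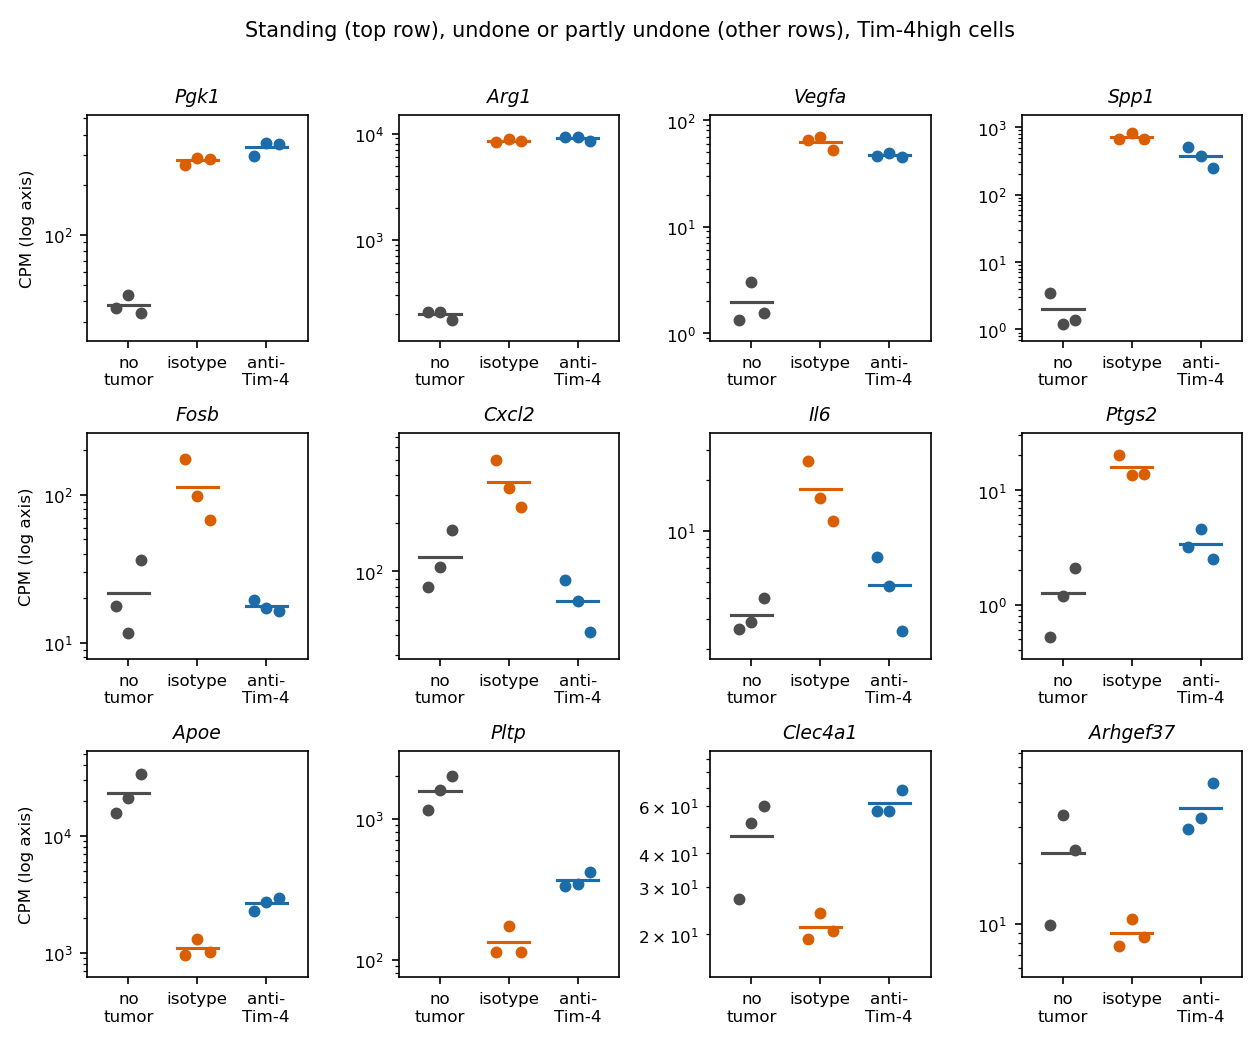
CPM (log axes) of 12 genes in the 3 libraries of each Tim-4high group, with a point per library and a bar at the mean. In the top row both tumor groups lie above no tumor, in the middle row the anti-Tim-4 libraries return toward or below the no-tumor range, and in the bottom row they rise from the isotype level toward or above it.

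Some immediate-early genes, Fos, Fosb and Egr1 among them, were called lower under anti-Tim-4 than under isotype. Of 30 immediate-early and heat shock genes, 8 were called higher and 3 lower under isotype, while 3 were called higher and 14 lower under anti-Tim-4. The shares called were 36.7% and 56.7%, against 51.5% and 52.9% of all genes, and the medians were 0.36 and -0.59. Directly against isotype, 12 were called lower and 1 higher, or 43.3% of the list against 7.97% of all genes. The 12 were 3 undone genes (Fos, Fosb and Jund), 7 added genes, Klf2, which was among the 6 reversed genes, and Junb, called against isotype alone. The higher one was the chaperone gene Dnajb1, which was undone (0.52, edgeR adjusted p = 0.0492). Without isotype library 1 none of the 30 was called against isotype by edgeR, and without anti-Tim-4 library 3 the count was 1.

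Fosb, a subunit of the AP-1 transcription factor, was at 17.7, 11.6 and 36.4 CPM without a tumor, 175, 98.6 and 67.6 under isotype, and 19.6, 17.3 and 16.4 under anti-Tim-4. All anti-Tim-4 libraries lay inside the no-tumor range and below the isotype libraries. The log2 fold change was -2.68 ± 0.49 against isotype (edgeR adjusted p = 0.00947) and -0.30 ± 0.47 against no tumor (adjusted p = 0.616). Fos, another AP-1 subunit, was at 204 to 552, 671 to 901 and 232 to 357 CPM, and fell by 1.51 against isotype on the log2 scale (adjusted p = 0.0179). Klf2, a transcription factor that restrains macrophage activation, was at 647 to 834 CPM without a tumor, 871 to 1000 under isotype and 576 to 636 under anti-Tim-4, below both other groups.

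The added genes went below the no-tumor level, where library 3 was high. Egr1, an early growth response factor, was at 31.2, 44.8 and 142 CPM without a tumor, 126, 89.3 and 113 under isotype, and 24.7, 14.8 and 10.2 under anti-Tim-4. Nr4a1, an orphan nuclear receptor induced by stimulation, was at 29.0, 47.2 and 155, then 180, 104 and 92.1, then 25.8, 18 and 13.2 CPM. Both genes were called against no tumor (-2.13 ± 0.67 and -2.02 ± 0.66, edgeR adjusted p = 0.0138 and 0.0175), and without no-tumor library 3 the values were -1.20 and -1.0 (adjusted p = 0.132 and 0.189). That library had the highest no-tumor level in 28 of the 30 genes, and without it 7 of them were called lower against no tumor. Over all genes, 3833 were called lower in that fit, beside 4228 (25.5%) with every library. The phosphatase gene Dusp1 was at 587, 613 and 1010, then 1344, 991 and 1224, then 476, 350 and 238 CPM, with log2 fold changes of -1.05 ± 0.31 against no tumor (adjusted p = 0.00919) and -1.74 ± 0.31 against isotype (adjusted p = 0.00947). Leaving out no-tumor library 3 raised the adjusted p of Dusp1 against no tumor to 0.0605. Btg2, an antiproliferative immediate-early gene, was at 248 to 452, 252 to 331 and 68.5 to 141 CPM, and was called at -1.64 and -1.58 (adjusted p = 0.00099 and 0.0175).

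Hspa1a and Hspa1b, near-identical copies whose reads cannot be assigned with certainty, stood at lower levels under either antibody. Hspa1b was at 507, 1299 and 1316 CPM without a tumor, 54.2, 70.8 and 49.8 under isotype, and 135, 103 and 175 under anti-Tim-4. Its log2 fold change against no tumor was -2.91 ± 0.40 (edgeR adjusted p = 2.18e-05), and the 1.24 ± 0.38 against isotype was not called (adjusted p = 0.0571). The chaperone genes Hsp90aa1 and Hspa8 rose by 1.11 ± 0.09 and 0.59 ± 0.10 under anti-Tim-4 against no tumor.

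Neutrophil-attracting chemokines and some interleukin genes were also lower under anti-Tim-4 than under isotype. Of 21 chemokine genes, 13 were called higher and 2 lower under isotype, and 11 higher and 4 lower under anti-Tim-4, 71.4% called in either comparison against 51.5% and 52.9% of all genes. Against isotype (23.8% called against 7.97%), 4 were called lower, namely Ccl22, Cxcl1, Cxcl2 and Cxcl3, and 1, Cxcl16, higher. Cxcl2 was at 79.8, 106 and 183 CPM without a tumor, 498, 334 and 253 under isotype, and 88.7, 65.6 and 41.7 under anti-Tim-4. It was undone, at -2.47 ± 0.46 against isotype (edgeR adjusted p = 0.0097) and -0.91 ± 0.44 against no tumor (adjusted p = 0.0938). Cxcl1 was added, at 9.34, 10.3 and 31.0, then 45.7, 30.4 and 11.9, then 5.44, 4.23 and 2.16 CPM. Its -2.10 ± 0.72 against no tumor (adjusted p = 0.0225) was -1.32 without no-tumor library 3 (adjusted p = 0.151).

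Other chemokines stood. Ccl8, a monocyte attractant, was at 0.0747, 0.0395 and 0.0377 CPM without a tumor, 4 counts in all, 33.0, 70.6 and 18.8 under isotype, and 67.9, 123 and 87.2 under anti-Tim-4. Ccl12 and Ccl6 stood too, with rises of 4.61 ± 0.44 and 2.32 ± 0.11 under anti-Tim-4 against 4.10 and 2.34 under isotype.

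Of 23 interleukin-1 and inflammatory genes, 13 were called higher and 2 lower under isotype, 10 higher and 6 lower under anti-Tim-4, and 6 lower against isotype. The shares called were 65.2%, 69.6% and 26.1%, against 51.5%, 52.9% and 7.97% of all genes, and the share called lower under anti-Tim-4 was close to the 25.5% of all genes. Il6 was at 2.65, 2.88 and 4.04 CPM without a tumor, 25.8, 15.6 and 11.4 under isotype, and 7.03, 4.73 and 2.56 under anti-Tim-4. Il6 was undone, at -1.88 ± 0.47 against isotype (edgeR adjusted p = 0.0271) and 0.58 ± 0.48 against no tumor (adjusted p = 0.327). Ptgs2, which encodes the prostaglandin synthase COX-2, was partly undone, at 0.523, 1.18 and 2.08, then 20, 13.5 and 13.9, then 3.15, 4.54 and 2.49 CPM. The groups of Ptgs2 did not overlap, and its log2 fold changes were -2.22 ± 0.38 against isotype (adjusted p = 0.00888) and 1.42 ± 0.42 against no tumor (adjusted p = 0.00932). The receptor antagonist gene Il1rn stood, at 2.11 ± 0.26 under anti-Tim-4 and 2.35 under isotype. Casp1, Pycard and Nfkbia, parts of the inflammasome and of NF-kB control, also stood, at 0.94, 0.67 and 1.01 under anti-Tim-4.

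Isotype library 3, the one with high neutrophil and T cell markers, moved the log2 fold change against isotype by over 1.5 times in 5 of the 49 named genes called there, Il1b, Ccl22, Cxcr2, Mmp9 and Csf3r. Il1b was at 24.7, 25.8 and 111 CPM under isotype and 9.48, 8.27 and 6.73 under anti-Tim-4, and its -2.73 ± 0.70 (edgeR adjusted p = 0.0302) was -1.63 without that library (adjusted p = 0.167). The values of Ccl22 were 3.30, 3.95 and 22.9 against 1.79, 1.77 and 1.10 CPM, and of the neutrophil receptor gene Cxcr2 9.44, 9.67 and 53.6 against 4.54, 3.69 and 3.26 CPM. Without the library the log2 fold changes were -1.23 for Ccl22 and -1.32 for Cxcr2 (adjusted p = 0.296 and 0.294), in place of -2.69 and -2.66. Mmp9, a gelatinase, was at 12.1, 11.8 and 52.2 under isotype and 4.27, 7.04 and 5.08 under anti-Tim-4, with -2.21 ± 0.64 and, without the library, -1.13 (adjusted p = 0.291). Csf3r, the receptor of granulocyte colony-stimulating factor, was at -1.28, and at -0.71 without it (adjusted p = 0.034 and 0.184). Cxcl1 kept its call without it, at -3.28 (adjusted p = 0.0467), and Il6 was at -2.12 (adjusted p = 0.0501).

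Without isotype library 3, 35 of the 49 lost the call with edgeR, and all 49 kept their direction. Among immediate-early genes, Egr1 was then at -2.71 and Nr4a1 at -2.91 (edgeR adjusted p = 0.0766 and 0.0615). Of the partly undone genes, Apoe was at 1.20, Hal at 1.55 and Odc1 at -0.42 (adjusted p = 0.0824, 0.08 and 0.0743). The undone genes Arhgef37, Rcn3 and Rnf150 were at 2.04, 1.38 and 1.24 (adjusted p = 0.056, 0.0873 and 0.0862). The added genes Mrc1 and Stab1 were at 1.39 and 1.23 (adjusted p = 0.133 and 0.113). Of the extended genes described, the values were 0.66 for Bnip3, 2.09 for Pdcd1lg2, -0.48 for Cd80, 0.33 for Pcna, 0.45 for Ctss and -1.78 for Sel1l3 (adjusted p = 0.076, 0.0919, 0.07, 0.0726, 0.0631 and 0.08). Tarm1, B3gnt7, C6 and Cfp were at 1.37, 1.82, 1.07 and -0.60 (adjusted p = 0.0575, 0.0721, 0.121 and 0.1), and the replication genes Mcm3 and Mcm6 at 0.30 and 0.41 (adjusted p = 0.161 and 0.108). Leaving out isotype library 1 instead lost all 49 calls, and anti-Tim-4 library 3 lost 47.

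Windows before the start are shown for Btg2 and Cxcl2, an added and an undone gene, since each holds a motif of a factor that acts after stimulation. In Btg2 the capitals mark TGACGTCA, the palindromic cyclic AMP response element, and in Cxcl2 they mark the NF-kB (kappaB) site, where 2 overlapping matches on opposite strands share the letters. The 250 bases are from RefSeq on GRCm38.p6 in the direction of transcription, at chr1:134079156-134079405 (minus strand) and chr5:90903649-90903898 (plus strand).
Btg2: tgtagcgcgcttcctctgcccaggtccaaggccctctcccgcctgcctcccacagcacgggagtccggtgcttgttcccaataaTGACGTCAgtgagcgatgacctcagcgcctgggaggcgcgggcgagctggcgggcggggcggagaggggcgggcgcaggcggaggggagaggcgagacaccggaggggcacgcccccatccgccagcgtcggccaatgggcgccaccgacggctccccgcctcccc
Cxcl2: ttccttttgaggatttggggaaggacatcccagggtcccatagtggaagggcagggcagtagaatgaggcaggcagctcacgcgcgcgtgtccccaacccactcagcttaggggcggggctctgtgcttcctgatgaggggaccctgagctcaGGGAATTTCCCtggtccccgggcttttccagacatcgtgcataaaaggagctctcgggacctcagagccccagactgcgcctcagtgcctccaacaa

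TGACGTCA stood in 2 of 24 immediate-early and heat shock genes with an entry (8.33%) and in 1 each of the glycolysis, hypoxia response and resident macrophage genes, against 1.77% of all 27025 genes. The kappaB site stood in 5 of 21 interleukin-1 and inflammatory genes (23.8%) and 6 of 24 immediate-early and heat shock genes (25%), against 8.23%. It stood in 5 of 20 hypoxia response genes (25%), 2 of 21 glycolysis genes (9.52%) and none of 16 resident macrophage genes.

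Several lipid genes were lowered by the tumor and came back part of the way under anti-Tim-4. Apoe, apolipoprotein E, was at 15525, 20940 and 33934 CPM without a tumor, 963, 1323 and 1012 under isotype, and 2274, 2700 and 2944 under anti-Tim-4. The groups did not overlap, and Apoe was partly undone, at 1.26 ± 0.29 against isotype (edgeR adjusted p = 0.02) and still -3.15 ± 0.31 against no tumor (adjusted p = 7.58e-07). Pltp, the phospholipid transfer protein, was at 1142, 1588 and 1996, then 114, 174 and 113, then 331, 345 and 421 CPM, at 1.45 ± 0.25 against isotype (adjusted p = 0.00924). Cd36, a scavenger receptor for lipids and dying cells, was at 523 to 667, 30.0 to 81.7 and 103 to 150 CPM, at 1.26 ± 0.32 against isotype (adjusted p = 0.029). In the list of 27 lipid efflux and storage genes that holds these 3, 7 were called higher and 1 lower against isotype, or 29.6% against 7.97% of all genes. Of the 27, 3 were partly undone and 2 undone, while 3 were added, so not part of the isotype change. Without isotype library 1 or anti-Tim-4 library 3, edgeR called none of the 27.

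Outside that list, Clec4a1, a C-type lectin receptor gene, was at 27.0, 51.6 and 60.1 CPM without a tumor, 19.2, 24.0 and 20.6 under isotype, and 57.6, 57.5 and 69.0 under anti-Tim-4. It was undone, at 1.53 ± 0.24 against isotype (edgeR adjusted p = 0.0068). Arhgef37, a guanine nucleotide exchange factor gene, was at 9.82, 34.4 and 23.1, then 7.75, 10.5 and 8.62, then 29.4, 33.2 and 50 CPM, and was undone at 2.07 ± 0.40 (adjusted p = 0.0115). Rcn3 and Rnf150 were likewise undone, at 1.52 and 1.49 against isotype. Hal, which degrades histidine, stayed 16.3-fold below no tumor while it rose from 4.27 to 6.67 CPM under isotype to 13.8 to 22.1.

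Genes of dying cell uptake other than Timd4 were spread over the standing, partly undone, extended and added classes. Of 23 tested genes of phosphatidylserine recognition and engulfment, 10 were called higher and 6 lower under anti-Tim-4, and 8 higher and 5 lower under isotype. The shares called were 69.6% against 52.9% of all genes and 56.5% against 51.5%, the second close to the background. Mertk, a receptor kinase for phosphatidylserine bridging proteins, was at 153 to 221, 158 to 190 and 202 to 214 CPM and was called in no comparison (adjusted p of 0.736 against no tumor). Its relative Axl stood, at 70.7, 112 and 96.2, then 195, 198 and 205, then 233, 186 and 216 CPM (1.19 ± 0.14, edgeR adjusted p = 5.62e-06). The phosphatidylserine receptor gene Cd300lf stood at 3.79 ± 0.31, and the transglutaminase gene Tgm2 at 4.60, in both cases with less than 0.02 on the log2 scale between the antibodies. Stab1, another phosphatidylserine receptor, was added upward, at 222, 274 and 329, then 244, 526 and 199, then 671, 964 and 1076 CPM. Its log2 fold changes were 1.72 ± 0.37 against no tumor (adjusted p = 0.00114) and 1.48 ± 0.37 against isotype (adjusted p = 0.0277), and DESeq2 kept the second in 3 of 6 omissions. Pros1, which bridges phosphatidylserine to these kinases, was extended downward, at 466 to 564, 276 to 304 and 179 to 241 CPM.

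Trem2, Mrc1 and S100a4 were also added upward. Trem2, a lipid-sensing receptor, was at 32.4, 41.7 and 54.2, then 52.4, 87.0 and 52.3, then 127, 149 and 161 CPM, at 1.77 ± 0.24 against no tumor (edgeR adjusted p = 1.84e-05) and 1.19 ± 0.24 against isotype (adjusted p = 0.0118). Mrc1, the mannose receptor CD206, was at 79.9, 164 and 285, then 125, 286 and 98.9, then 467, 547 and 608 CPM, at 1.62 ± 0.43 and 1.67 ± 0.44 (adjusted p = 0.00543 and 0.0322). The anti-Tim-4 libraries lay above all 6 others for both genes, and the DESeq2 call of Mrc1 against isotype held in 3 of 6 omissions. S100a4, a calcium-binding protein of motile cells, was at 42.9 to 64.8, 53.8 to 72.8 and 131 to 174 CPM, with 1.43 ± 0.18 and 1.19 ± 0.18 (adjusted p = 8.02e-06 and 0.00654). Ccr2, the receptor of recruited monocytes, was at 73.3, 28.5 and 38.1, then 45.0, 55.8 and 123, then 150, 117 and 159 CPM, called against no tumor (1.61, adjusted p = 0.00138) and not against isotype (0.93, adjusted p = 0.108). Of 15 monocyte markers, 12 were called higher and 3 lower under anti-Tim-4 against no tumor (100% against 52.9% of all genes, median log2 fold change 2.07). Under isotype, 10 were called higher and 2 lower (80% against 51.5%, median 2.03), and 9 stood. Directly against isotype, 3 were called higher and 1 lower (26.7% against 7.97%), with a median of 0.06. Ly6c2, a surface antigen of recruited monocytes, was at 0.0755 to 1.76, 11.1 to 30.1 and 31.5 to 45.9 CPM in the 3 groups. Their sum was 44449 to 60429 CPM without a tumor, 36220 to 36947 under isotype and 31182 to 37909 under anti-Tim-4, most of it Fn1, the fibronectin gene, which fell by 0.96 on the log2 scale against no tumor. The part of monocytes in these results was not tested.

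Extended genes moved further from no tumor under anti-Tim-4 than under isotype. Mmp14, a membrane-bound metalloprotease, was at 3.18, 1.26 and 2.68, then 11.5, 18.6 and 15.7, then 40.9, 54.5 and 53.7 CPM, at 1.70 ± 0.28 against isotype (edgeR adjusted p = 0.0068). Ggta1, a sugar transferase gene, was at 0.604 to 2.05, 8.29 to 19.9 and 38.0 to 50.8 CPM, at 1.74 ± 0.33 (adjusted p = 0.0099). Tcim, a regulator of transcription and immunity, was extended downward, at 51.8, 35.6 and 76.2, then 10.7, 13.8 and 11.8, then 3.38, 2.42 and 1.79 CPM, at -2.26 ± 0.40 (adjusted p = 0.00924). Ipcef1 and Sel1l3 followed it, at -1.37 ± 0.25 and -1.64 ± 0.46 (adjusted p = 0.00947 and 0.0405). The groups of Mmp14, Ggta1, Tcim and Sel1l3 did not overlap. In the cysteine protease gene Ctss, 1133 to 1304, 2618 to 2904 and 3684 to 3893 CPM, the extension was 0.42 ± 0.09 (adjusted p = 0.0182).

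**Figure D5:**
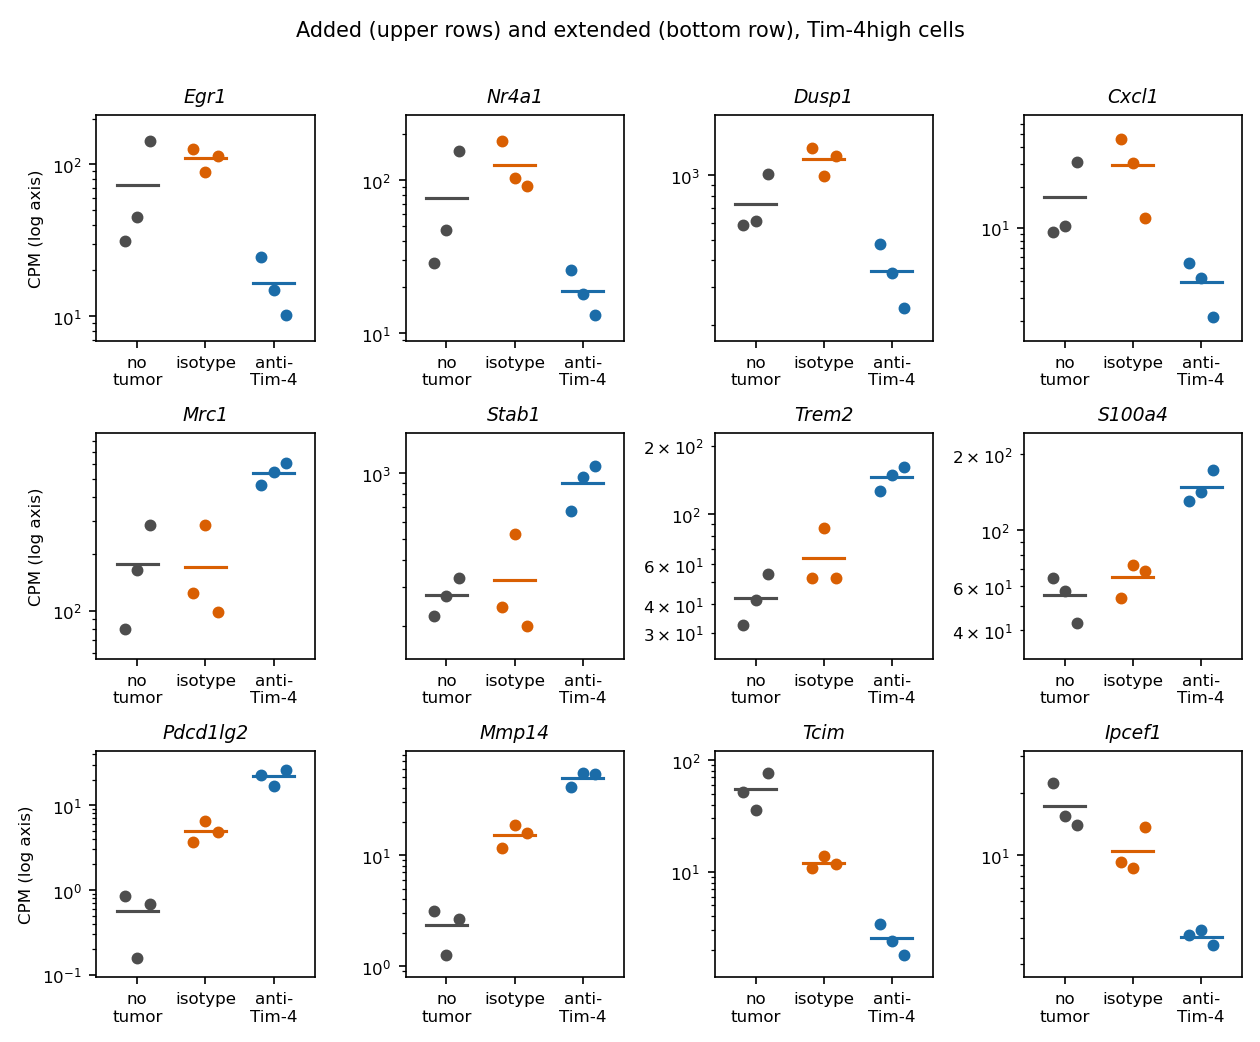
CPM (log axes) of 12 genes in the 3 libraries of each Tim-4high group, with a point per library and a bar at the mean. In the first row the anti-Tim-4 libraries lie below both other groups, in the second row above both, and in the third row they continue the step from no tumor to isotype.

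The largest changes of anti-Tim-4 tumor over no tumor were nearly all standing. Upward, after Ccl8, they were Chil3, AA467197, Lepr, Pdpn, Spp1, Spint1, Tarm1, B3gnt7 and Cdh1, with log2 fold changes from 9.65 for Chil3 to 6.98 for Cdh1. Spp1, the matrix protein osteopontin, was at 3.51, 1.22 and 1.36, then 674, 835 and 674, then 513, 375 and 252 CPM, at 7.54 ± 0.68 under anti-Tim-4 (edgeR adjusted p = 3.31e-07), and its -0.94 against isotype was not called (adjusted p = 0.236). Chil3, a chitinase-like gene with close copies, spanned 3079 to 11299 CPM under anti-Tim-4 and 7063 to 7452 under isotype. Of the 10, Tarm1 and B3gnt7 were extended, at 1.40 ± 0.28 and 1.93 ± 0.42 against isotype (adjusted p = 0.013 and 0.0168). Downward, the 10 were Prtg, Lama3, Tox2, Dnah12, Abca6, St8sia6, Cd209f, Pear1, Srpx and Rasgrp3, from -8.13 for Prtg to -6.03 for Rasgrp3. Lama3, a laminin chain, was at 111, 71.1 and 89.5, then 1.84, 1.49 and 1.19, then 0.544, 0.5 and 0.402 CPM and was the 1 of these 10 called against isotype (-1.64 ± 0.34, adjusted p = 0.0142). St8sia6, a sialic acid transferase, was at 121 to 213, 1.74 to 2.42 and 1.17 to 2.09 CPM.

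Of 38 lysosomal genes, 22 stood, 6 were partly undone and 2 undone. Against no tumor, 26 were called higher and 6 lower under anti-Tim-4, and 28 higher and 5 lower under isotype. The shares called were 84.2% and 86.8%, against 52.9% and 51.5% of all genes. Between the antibodies, 9 were called lower and 2 higher, or 28.9% against 7.97% of all genes. Ctsl, cathepsin L, stood at 2.25 ± 0.09 (edgeR adjusted p = 2.57e-10). Ctsd, cathepsin D, was partly undone, at 2423 to 3276, 12161 to 13397 and 7845 to 8767 CPM, with -0.58 against isotype (adjusted p = 0.0166), and Cd68, a lysosomal glycoprotein, went from 915 to 1026 under isotype to 621 to 787 (adjusted p = 0.03). Of 21 Nrf2 antioxidant genes, 18 were called higher under anti-Tim-4 and 17 under isotype (85.7% and 81% called). Of 24 matrix and protease genes, 16 were called higher and 4 lower under anti-Tim-4 (83.3% called). Of 22 unfolded protein response genes, 18 stood and 1 was undone, with 81.8% called under anti-Tim-4. Over all genes, the shares called were 52.9% under anti-Tim-4 and 51.5% under isotype.

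Type I interferon genes numbered 7 called higher and 6 lower of 30 under anti-Tim-4, 43.3% against 52.9% of all genes. Under isotype, 13 of them were called higher and 4 lower, 56.7% against 51.5% of all genes. Of 26 interferon-gamma genes, 11 were called higher and none lower under anti-Tim-4, and 7 higher and 1 lower under isotype, shares of 42.3% and 30.8% that lay below the 52.9% and 51.5% of all genes. Cholesterol synthesis genes were 9 higher and 3 lower of 24, and complement genes 6 higher and 4 lower of 20, 50% of either list and close to the 52.9% of all genes. Among complement genes, C6 was extended upward (1.31 ± 0.34 against isotype, edgeR adjusted p = 0.0307), and the properdin gene Cfp downward, at 2442 to 3193, 1811 to 2160 and 1112 to 1524 CPM. Of 20 alternative activation genes, 8 were called higher and 5 lower (65% against 52.9% of all genes, with the lower share close to the 25.5% of all genes), among them Retnla, a secreted product of alternatively activated macrophages, at 246 to 545, 21.6 to 41.4 and 48.7 to 64.0 CPM. Of 20 genes of small or recruited macrophages, 8 were called higher and 6 lower, against 27.4% and 25.5% of all genes, and 11 stood. Of 13 mitochondrially encoded genes, 4 were called lower and none higher (30.8% called against 52.9% of all genes), by -0.51 ± 0.11 for mt-Nd2 (adjusted p = 0.000857) and by less for the other 3.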

How the data were processed

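RNA of sorted peritoneal macrophages was sequenced in 18 libraries, 6 groups of 3 by their labels, and all entered the fit. The authors deposited estimated counts per gene, without normalization. STAR, DESeq2 and mm10 are named, without versions, in the submitters' processing notes. For the quantifier, annotation and strand setting, the sources used here give nothing. Values were rounded, since 62.8% to 66.8% of those in a library were whole to within 0.001. All 23511 genes matched GENCODE M21 by symbol. Reads of near-identical, overlapping or antisense genes (Chil3, Hspa1a and Hspa1b, Cd209f, the MHC genes) cannot be assigned with certainty. The transcript table and the authors' own comparison tables were not used here.

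filterByExpr kept 16609 genes, and 6902 genes with at most 0.0878% of any library's total were left out. The 6 groups were fitted in edgeR 4.0.16 under R 4.3.3 (quasi-likelihood test, TMM factors of 0.904 to 1.12). The common dispersion was 0.0323 and 12 residual degrees of freedom remained. P-values were adjusted by Benjamini-Hochberg over all tested genes, and a gene was called under 0.05. Replicates differed beyond counting noise, by a chi-square of 10.49 to 83.26 for each degree of freedom. A standard error is the size of the log2 fold change over the square root of its F statistic. The test was checked on simulated data.

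Genes named are Timd4, the 10 largest changes each way against no tumor, the 8 largest each way among undone or partly undone genes, the 5 largest each way among added and extended genes (each with a mean of 10 CPM or more in one group and no overlap, leaving out predicted gene models and antigen receptor segments), up to 4 genes with the smallest p of each of 25 lists, and key genes. These are 151 genes, not all described, and further list members were chosen after their values were seen. The members and the lists were chosen with earlier results of these data known. The settings varied were DESeq2 1.42.0, RLE factors, robust estimation, all genes kept, fewer groups in the fit, a replicate block and leaving out each Tim-4high library. Leaving out libraries with DESeq2 was added after seeing the data.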

Additional observations from a re-analysis of the deposited data

How the results depend on the processing

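Against no tumor, the 8782 genes called became 7797 to 8873 over the alternatives, and those for isotype over no tumor, 8548, became 7287 to 8668 (7627 to 8474 when a library was left out). Fits of all groups and of fewer groups, RLE factors, no filter and robust estimation gave totals within 1.5 times the reported ones for both. The 1324 genes called between anti-Tim-4 and isotype became 2108 with DESeq2 (998 higher, 1110 lower) and 2990 when only the compared groups were fitted (1436 higher, 1554 lower), and ranged from 10 to 1530 when a library was left out with edgeR and from 589 to 2056 with DESeq2. The fits without anti-Tim-4 library 2 or 3 gave 409 and 31 genes, and those without isotype library 1 or 3 gave 10 and 203, with fewer samples in each. Genes that stood numbered 5590 to 6488 under omissions. Standing requires no call against isotype, so fewer calls there can raise this count, and 6488 came without anti-Tim-4 library 3. Classes were not counted for the fit of the compared groups alone. Undone or partly undone genes, 579, were 883 with DESeq2 and 7 to 674 under omissions. Extended genes, 304, were 488 with DESeq2 and 2 to 316 under omissions. Added genes, 351, were 523 with DESeq2 and 1 to 376 under omissions. Of the 138 named genes called against no tumor, 130 kept the call in every alternative, and of the 49 called against isotype, none kept it under every edgeR omission (adjusted p up to 0.296) and 31 did under all DESeq2 omissions. No result reversed its direction after being called.

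Libraries of the same number did not pair across conditions, with correlations of deviations of 0.015 to 0.083 for anti-Tim-4 and no tumor, -0.17 to 0.124 for isotype and no tumor, and -0.042 to 0.029 for anti-Tim-4 and isotype. With a replicate block, 8873 genes were called against no tumor, 8668 for isotype against no tumor and 1634 between the antibodies.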
